A study of Mus musculus with 12 samples.

Results

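The decision of a liver cell to enter the cell cycle is set in G1, and 10 genes of that switch were examined here among the 53715 genes of the count table. They were listed by name as 3 D-type cyclins (Ccnd1, Ccnd2 and Ccnd3), 5 cyclin-dependent kinase (CDK) inhibitors (Cdkn1a, Cdkn1b, Cdkn2a, Cdkn2b and Cdkn2c), the tumour suppressor Trp53 and its ubiquitin ligase Mdm2. The list is by name and sets no threshold on measured values, and all 10 had enough counts to be tested.

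RNA-seq was performed on primary liver cells of C57BL/6JOlaHsd mice in 3 groups of 4 biological replicates. Hepatoblasts, the bipotent embryonic progenitors, were isolated from livers of E14.5 embryos with magnetic beads against the surface protein Dlk1 and processed without culture. Each isolation pooled the livers of several embryos. Diff. hepatocytes were E14.5 Dlk1+ hepatoblasts kept for 4 days on fibronectin in a differentiation medium, which, per the paper's protocol, held serum, insulin, dexamethasone and Matrigel. Mature hepatocytes were isolated by collagenase perfusion from livers of 8 to 12 week old mice, which the paper's methods describe as male, and were processed without culture. The labels name no transgene or deletion in any group. Red cells were lysed during the isolation of hepatoblasts. Age, culture and isolation method differ between the groups and cannot be told apart from the cell state. The gene counts of a library summed to 19581551 at the lowest and 25216977 at the highest.

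D-type cyclins bind Cdk4 and Cdk6 and phosphorylate the retinoblastoma family, which releases E2F factors to switch on genes of DNA replication. Ink4 inhibitors (p15, p16 and p18) block Cdk4 and Cdk6, and Cip/Kip inhibitors (p21, p27 and p57) mainly block cyclin E-Cdk2 complexes. p53 induces p21 and Mdm2, Mdm2 marks p53 for degradation, and the Cdkn2a locus also encodes p19Arf, which restrains Mdm2. In the liver these proteins are known for the arrest of hepatocytes after birth and for the re-entry into the cell cycle after partial hepatectomy, in which cyclin D1 is induced.

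The labels were first set against marker genes. Dlk1, the sorted surface marker, had 3523 ± 759, 94.2 ± 4.55 and 4.19 ± 1.502 CPM in hepatoblasts, Diff. and mature hepatocytes. CPM is a gene's share of the library's counts, scaled between libraries by TMM. Levels, shares and ratios are mean ± SD of n = 4 libraries throughout, while a log2 fold change is given ± its standard error (SE). Afp, the fetal serum protein, had 39340 CPM, 18610 CPM and 42.3 CPM in the same order. Alb, the serum albumin gene, had 37760 ± 8303, 40230 ± 2957 and 95190 ± 16530 CPM. Cps1, the urea cycle enzyme, had 21.98 ± 5.91, 5920 ± 417 and 6066 ± 653 CPM, and Tat, which degrades tyrosine, had 2.33 ± 0.261, 725 ± 145 and 2412 ± 254 CPM. Ttr had 1955 ± 486, 1059 ± 107.5 and 7897 ± 802 CPM, and Hnf4a 409 ± 92.06, 619 ± 75.95 and 1087 ± 182 CPM. Dlk1 was thus highest in hepatoblasts, and Cps1 and Tat separated both hepatocyte groups from them. Hnf4a rose less, and Ttr was lower in Diff. hepatocytes than in hepatoblasts and highest in mature hepatocytes. The hepatocyte markers thus did not all rise in Diff. hepatocytes.

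The libraries hepatoblast replicate 1 and Diff. hepatocyte replicate 1 stood apart from their groups. The 9 measured erythroid markers, led by the globin gene Hbb-bs, summed to 2840 CPM in hepatoblast replicate 1 against 348 to 577 CPM in the other hepatoblast libraries. Macrophage markers summed to 389 CPM there against 91.95 to 112 CPM, and lymphoid and granulocyte markers, led by Mpo, to 370 CPM against 27.04 to 42.4 CPM. In Diff. hepatocyte replicate 1 bile duct markers, led by Krt19, summed to 213 CPM against 69.95 to 93.5 CPM in the other Diff. hepatocyte libraries, and mesenchymal markers, led by Col1a1, to 2325 CPM against 947 to 1586 CPM. Erythroid cells divide in the fetal liver, so these sums are given with those of the cell cycle. Values without one of the libraries are given beside several results.

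**Figure D1:**
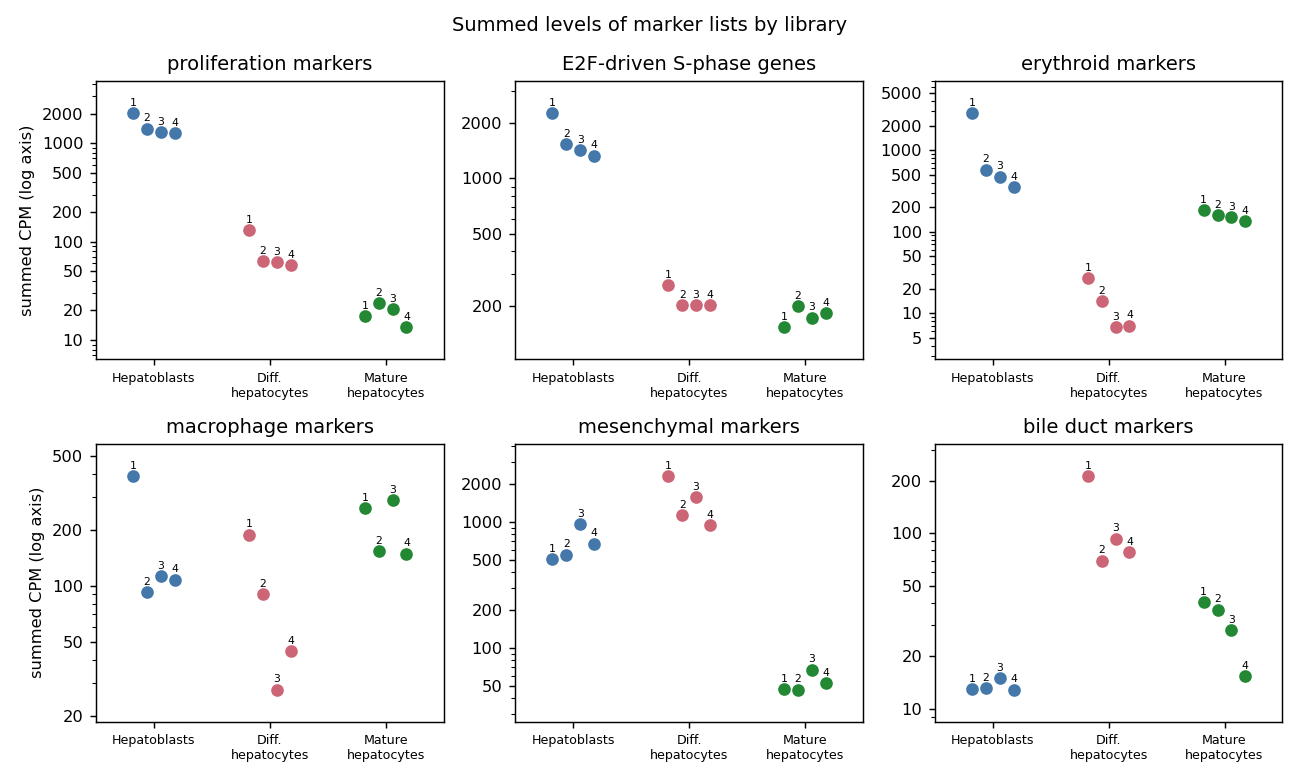
Summed CPM of 6 gene lists (log axis) in each of the 12 libraries, with the replicate number above each point. Hepatoblast replicate 1 reached 2840 CPM of erythroid markers, and Diff. hepatocyte replicate 1 had the highest sum of its group in the 6 lists plotted, while replicate 2 did for endothelial and megakaryocyte markers, which are not plotted.

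Proliferation genes were low in both hepatocyte groups. The 10 proliferation markers, led by Mki67, summed to 1492 ± 358 CPM in hepatoblasts, 78.5 ± 35.2 CPM after differentiation in culture and 18.8 ± 4.30 CPM in the adult cells. The sums were 2021, 1405, 1286 and 1258 CPM in the 4 hepatoblast libraries. Those of Diff. hepatocytes were 131, 63.1, 61.8 and 57.8 CPM, and those of mature hepatocytes 17.4, 23.6, 20.6 and 13.6 CPM. The 3 groups did not overlap, and replicate 1 was the highest library in hepatoblasts and in Diff. hepatocytes. In bulk RNA, fewer cells of a type and less RNA per cell cannot be told apart.

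Genes were called when edgeR's adjusted p was under 0.01 and the absolute log2 fold change over 1, and the shares of all 17779 tested genes that passed serve as background. Of the 10 genes, 3 rose and 2 fell in Diff. hepatocytes against hepatoblasts, where 28.9% of all tested genes were called, 14.9% higher and 14.0% lower. In mature hepatocytes against hepatoblasts 1 rose and 4 fell, beside 44.8% of all genes, 20.1% higher and 24.7% lower. In Diff. hepatocytes against mature hepatocytes 5 were higher and 1 was lower, beside 35.8% of all genes, 20.2% higher and 15.6% lower. Their medians on the log2 scale were 0.01, -0.76 and 1.07, beside -0.01, -0.15 and 0.09 over all tested genes. These comparisons share libraries with each other, so each is described by its own values. With library totals in place of TMM the median log2 fold change of all genes moved by -0.32, -0.85 and 0.53, and the share of higher genes among those called went from 51.5%, 44.9% and 56.4% to 35.4%, 20.2% and 75.6%. Fold changes are therefore relative to the bulk of genes.

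**Figure D2:**
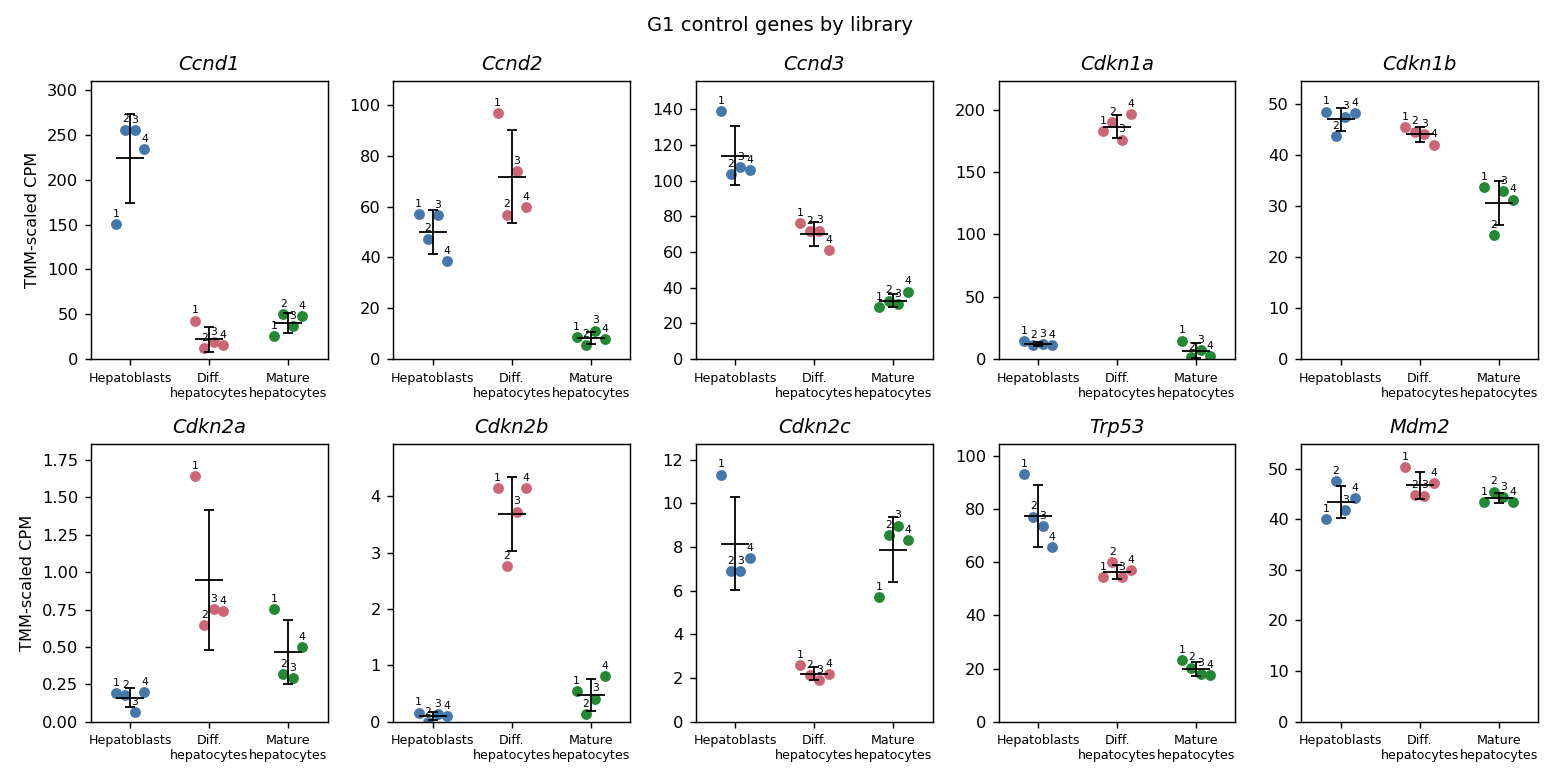
TMM-scaled CPM (linear axis from 0) of the 10 genes in the 12 libraries, with replicate numbers, the mean as a line and the SD as error bars. Cdkn1a stood between 176 and 197 CPM in Diff. hepatocytes and at 14.8 CPM or below in all other libraries, while Mdm2 stayed between 40.1 and 50.3 CPM throughout.

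Ccnd1 fell in both hepatocyte groups against hepatoblasts. Cyclin D1, encoded by Ccnd1 (ENSMUSG00000070348, chromosome 7, 144929931 to 144939925, minus strand of GRCm38), is the growth-factor sensor of G1. Hepatoblasts had 151, 256, 255 and 234 CPM, Diff. hepatocytes 42.9, 11.8, 18.8 and 15.5 CPM, and mature hepatocytes 25.4, 50.2, 36.4 and 47.6 CPM. All hepatoblast libraries lay above all others, replicate 1 was the lowest of hepatoblasts and the highest of Diff. hepatocytes, and both hepatocyte groups overlapped. Ccnd1 fell 10.1-fold in Diff. hepatocytes (log2 fold change -3.33 ± 0.37 SE, edgeR adjusted p = 5.23e-06, or -4.01 without replicate 1 of both groups) and 5.61-fold in mature hepatocytes (-2.49 ± 0.36, edgeR adjusted p = 3.06e-05). Between Diff. and mature hepatocytes it was not called (-0.84 ± 0.35, edgeR adjusted p = 0.0488), but without Diff. hepatocyte replicate 1 it was lower in Diff. hepatocytes (-1.38, edgeR adjusted p = 0.000533). Ccnd1 shares 1100 exonic bases with LTO1 on the opposite strand, and 20.6% of its 75-base words are shared with other genes. LTO1 itself had 2381 counts over the 12 libraries.

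Ccnd2 and Ccnd3 fell in mature hepatocytes and passed the call in Diff. hepatocytes only against mature hepatocytes. Cyclin D2, encoded by Ccnd2 (ENSMUSG00000000184, chromosome 6, 127125162 to 127152193, minus strand), had 57.1, 47.4, 56.6 and 38.6 CPM in hepatoblasts. Diff. hepatocytes had 96.7, 56.8, 73.9 and 59.8 CPM. Mature hepatocytes had 8.71, 5.65, 11.2 and 7.95 CPM, below all other libraries, while hepatoblast replicate 1 exceeded Diff. hepatocyte replicate 2, so these groups overlapped. Ccnd2 was 5.95-fold lower in mature hepatocytes than in hepatoblasts (log2 fold change -2.57 ± 0.22, edgeR adjusted p = 2.02e-07) and 8.55-fold higher in Diff. than in mature hepatocytes (3.10 ± 0.23, edgeR adjusted p = 6.7e-08). Between Diff. hepatocytes and hepatoblasts it was not called (0.52 ± 0.20, edgeR adjusted p = 0.0376).

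Cyclin D3, encoded by Ccnd3 (ENSMUSG00000034165, chromosome 17, 47505051 to 47599691, plus strand), was highest in hepatoblasts and lowest in mature hepatocytes. Hepatoblasts had 139, 104, 108 and 106 CPM, Diff. hepatocytes 76.2, 71.5, 71.9 and 60.8 CPM, and mature hepatocytes 29.3, 32.7, 30.8 and 37.8 CPM. No library of one group overlapped another group. The step from hepatoblasts to Diff. hepatocytes had a small adjusted p but missed the fold threshold (log2 fold change -0.70 ± 0.11, edgeR adjusted p = 0.000156), and with library totals it was called lower (-1.03, edgeR adjusted p = 2.5e-05). Ccnd3 fell 3.49-fold in mature hepatocytes against hepatoblasts (-1.80 ± 0.12, edgeR adjusted p = 1.43e-08), and was 2.15-fold higher in Diff. than in mature hepatocytes (1.10 ± 0.12, edgeR adjusted p = 2.49e-06). The last call ended when the fold threshold was part of the test (edgeR glmTreat, adjusted p = 0.203).

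The make-up of the D-type cyclins differed between the groups. Per kilobase of exon the 3 cyclins summed to 65.9 ± 8.48 CPM per kb (hepatoblasts), 20.3 ± 5.39 (Diff. hepatocytes) and 13.1 ± 2.62 (mature hepatocytes). Ccnd1 made up 71.5% ± 8.10, 21.8% ± 7.45 and 63.8% ± 6.47 of that sum in the same order of groups. Ccnd2 made up 8.22% ± 2.21, 37.6% ± 1.41 and 7.18% ± 2.85. Ccnd3 made up 20.3% ± 6.08, 40.6% ± 7.35 and 29.0% ± 4.05. In every Diff. hepatocyte library Ccnd2 and Ccnd3 together exceeded Ccnd1, and in every hepatoblast and mature hepatocyte library Ccnd1 exceeded both others. The order depends on the length used, since Ccnd3 has 8775 bases of exon in all its transcripts but 2113 in the longest one. With the longest coding transcript Ccnd3 rather than Ccnd1 led in mature hepatocytes, at 56.7% against 38.3%. In hepatoblasts that length gave 49.0% for Ccnd1 and 44.5% for Ccnd3, and Ccnd3 exceeded Ccnd1 in replicate 1.

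**Figure D3:**
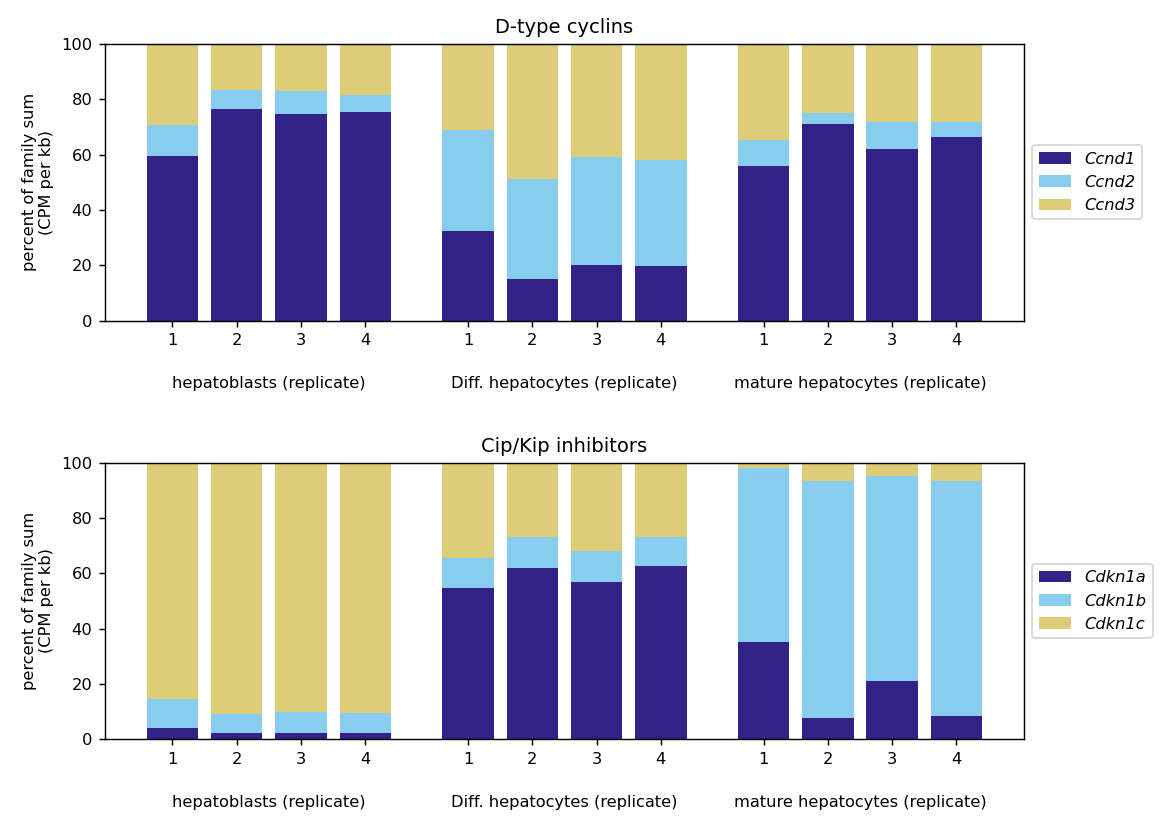
Share of each gene in the summed CPM per kb of its family (stacked bars, percent) for each library, D-type cyclins above and Cip/Kip inhibitors below. Ccnd1 is the widest band outside Diff. hepatocytes, and the leading inhibitor is Cdkn1c in hepatoblasts, Cdkn1a in Diff. hepatocytes and Cdkn1b in mature hepatocytes.

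Cdkn1a was higher in Diff. hepatocytes than in both other groups. It encodes p21, which inhibits cyclin-CDK complexes downstream of p53, and lies on chromosome 17 (ENSMUSG00000023067, 29090976 to 29100727, plus strand). Hepatoblasts had 14.51, 11.1, 12.1 and 11.3 CPM. Diff. hepatocytes reached 183, 190.0, 176 and 197 CPM. Mature hepatocytes had 14.8, 1.73, 7.35 and 2.36 CPM. Diff. hepatocytes lay above all other libraries with a coefficient of variation of 4.80%, and mature hepatocytes varied among themselves by 92.1% and overlapped hepatoblasts. Cdkn1a rose 15.2-fold against hepatoblasts (log2 fold change 3.93 ± 0.45, edgeR adjusted p = 6.2e-06) and was 28.6-fold higher than in mature hepatocytes (4.84 ± 0.48, edgeR adjusted p = 1.26e-06), a value that became 5.59 without mature hepatocyte replicate 1. Mature hepatocytes against hepatoblasts gave -0.91 ± 0.44 (edgeR adjusted p = 0.0803), and without mature hepatocyte replicate 1 the same comparison was called lower (-1.68, edgeR adjusted p = 0.000907), as it was with library totals (-1.78, edgeR adjusted p = 0.00238). Mesenchymal marker sums varied from 947 to 2325 CPM across the Diff. hepatocyte libraries, in which Cdkn1a varied from 176 to 197 CPM. A part of these cells in the level of Cdkn1a was not tested.

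The 2 start sites of Cdkn1a in RefSeq (GRCm38.p6, plus strand) are shown because Cdkn1a is the textbook target of p53. Bases lie upstream of each start, at chr17:29090729-29090975 and chr17:29093519-29093768, and capitals mark a p53 response element in the first and Sp1 motifs in the second.
Cdkn1a upstream start: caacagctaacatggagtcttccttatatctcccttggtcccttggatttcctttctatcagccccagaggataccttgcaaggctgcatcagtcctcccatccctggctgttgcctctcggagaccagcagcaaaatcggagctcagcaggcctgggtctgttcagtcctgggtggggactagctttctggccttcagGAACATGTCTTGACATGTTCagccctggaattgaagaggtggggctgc
Cdkn1a downstream start: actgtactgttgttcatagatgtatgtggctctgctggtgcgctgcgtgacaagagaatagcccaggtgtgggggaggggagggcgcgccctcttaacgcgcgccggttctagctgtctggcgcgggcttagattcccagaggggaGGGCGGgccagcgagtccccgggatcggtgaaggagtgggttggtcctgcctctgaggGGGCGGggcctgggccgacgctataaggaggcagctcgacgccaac
The p53 response element, searched by name as 2 adjoining half-sites with at most 1 mismatch on both strands, lies 51 to 32 bases before the upstream start. It was found in 15 of 32851 upstream windows of 250 bases (0.0457%), and among the windows of the listed genes in no other. Only these windows were searched, so a site elsewhere in or near a listed gene, Mdm2 included, could not be found. The Sp1 motif GGGCGG, searched on both strands, was in 32.7% of all windows. A match in these letters is a description and shows no binding.

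Cdkn1b, encoding p27, which holds quiescent cells out of the cycle (ENSMUSG00000003031, chromosome 6, 134920401 to 134925513, plus strand), varied little. Hepatoblasts had 48.5, 43.7, 47.5 and 48.2 CPM, Diff. hepatocytes 45.4, 44.6, 44.1 and 42.0 CPM, and mature hepatocytes 33.7, 24.3, 33.0 and 31.2 CPM. Hepatoblasts and Diff. hepatocytes overlapped, and mature hepatocytes lay below both. It was called in no comparison, although mature hepatocytes differed from hepatoblasts with a small adjusted p (log2 fold change -0.62 ± 0.10, edgeR adjusted p = 5.96e-05) and from Diff. hepatocytes likewise (0.53 ± 0.10 in Diff. against mature hepatocytes, edgeR adjusted p = 0.000319). With library totals it was called lower in mature hepatocytes than in hepatoblasts (-1.48, edgeR adjusted p = 1.24e-08) and higher in Diff. than in mature hepatocytes (1.06, edgeR adjusted p = 6.37e-07).

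The third Cip/Kip gene, the imprinted Cdkn1c encoding p57, had 240 ± 43.3, 54.6 ± 8.90 and 0.826 ± 0.248 CPM in hepatoblasts, Diff. and mature hepatocytes, and fell in both comparisons with hepatoblasts (log2 fold change -2.14 and -8.16). Per kilobase the 3 Cip/Kip genes summed to 131 ± 20.6, 88.9 ± 3.46 and 8.96 ± 2.38 CPM per kb in hepatoblasts, Diff. and mature hepatocytes. Cdkn1c made up 89.2% ± 2.60 of the sum in hepatoblasts, Cdkn1a 59.1% ± 3.86 in Diff. hepatocytes and Cdkn1b 76.9% ± 10.9 in mature hepatocytes. The leading gene was the same in all 4 libraries of each group. Cdkn2d, encoding the Ink4 protein p19Ink4d, and Cdkn3, a CDK phosphatase, fell in both groups against hepatoblasts (log2 fold change -2.07 and -1.79 for Cdkn2d, -3.74 and -5.23 for Cdkn3, the latter -6.04 without mature hepatocyte replicate 2).

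The Ink4 genes moved in opposite directions in culture. Cdkn2b, encoding p15, a target of TGF-beta signalling (ENSMUSG00000073802, chromosome 4, 89306299 to 89311039, minus strand), was near the limit of detection in hepatoblasts. Its counts there were 5, 0, 4 and 3, or 0.161, 0, 0.130 and 0.0994 CPM, and the library with 0 counts allows up to 0.0896 CPM, the level of 3 counts. Diff. hepatocytes had 96, 64, 84 and 84 counts, or 4.15, 2.76, 3.73 and 4.14 CPM, and mature hepatocytes 8, 2, 7 and 13 counts, or 0.549, 0.128, 0.409 and 0.807 CPM. Diff. hepatocytes lay above all other libraries, and mature hepatocytes overlapped hepatoblasts through replicate 2. Cdkn2b rose 36.4-fold in Diff. hepatocytes (log2 fold change 5.19 ± 0.54, edgeR adjusted p = 2.59e-06) and was 7.73-fold higher there than in mature hepatocytes (2.95 ± 0.47, edgeR adjusted p = 0.000102). Its call in mature hepatocytes against hepatoblasts (2.24 ± 0.61, edgeR adjusted p = 0.00484) was lost without hepatoblast replicate 4 (2.24, edgeR adjusted p = 0.0116), without mature hepatocyte replicate 1 (2.16, edgeR adjusted p = 0.013) or without mature hepatocyte replicate 4 (1.84, edgeR adjusted p = 0.024). It was also lost with library totals (1.39, edgeR adjusted p = 0.0484), with glmTreat (adjusted p = 0.0283) and in the edgeR fit of 8 libraries (adjusted p = 0.0191).

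Cdkn2a, the neighbour of Cdkn2b, stayed low in all groups (ENSMUSG00000044303, chromosome 4, 89274471 to 89294653, minus strand). Its gene count sums the transcripts of p16Ink4a, a CDK inhibitor, and p19Arf, which start at different first exons. Hepatoblasts had 6, 6, 2 and 6 counts, Diff. hepatocytes 38, 15, 17 and 15 counts, and mature hepatocytes 11, 5, 5 and 8 counts. As CPM these were 0.194, 0.179, 0.0648 and 0.199, then 1.64, 0.646, 0.755 and 0.740, then 0.754, 0.321, 0.292 and 0.497. Hepatoblasts lay below all other libraries, and Diff. and mature hepatocytes overlapped. Cdkn2a rose 5.79-fold in Diff. hepatocytes against hepatoblasts (log2 fold change 2.53 ± 0.44, edgeR adjusted p = 0.000264), and its estimate without Diff. hepatocyte replicate 1 and under the other alternatives stayed between 2.13 and 2.67. In mature hepatocytes it was not called against hepatoblasts (1.504 ± 0.49, edgeR adjusted p = 0.0139), but was called without hepatoblast replicate 1 and Diff. hepatocyte replicate 1 together (1.60, edgeR adjusted p = 0.00896). With replicate number as a block it was called as well (1.48, edgeR adjusted p = 0.00621). It was not called between Diff. and mature hepatocytes (1.03 ± 0.42, edgeR adjusted p = 0.0472), but with library totals it was called higher in Diff. hepatocytes (1.57, edgeR adjusted p = 0.00514).

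Because Cdkn2a and Cdkn2b rose together, the bases upstream of their RefSeq starts are shown, on the minus strand of GRCm38.p6 at chr4:89294654-89294869 for the p19Arf start, chr4:89282193-89282442 for the p16Ink4a start and chr4:89311040-89311282 for Cdkn2b. Bases within annotated exons were left out. Capitals mark an E2F motif and an Sp1 motif.
Cdkn2a p19Arf start: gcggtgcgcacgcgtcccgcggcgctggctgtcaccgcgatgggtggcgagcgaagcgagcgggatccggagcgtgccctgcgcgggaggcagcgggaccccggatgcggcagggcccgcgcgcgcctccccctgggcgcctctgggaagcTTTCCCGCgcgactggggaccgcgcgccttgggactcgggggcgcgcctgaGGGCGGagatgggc
Cdkn2a p16Ink4a start: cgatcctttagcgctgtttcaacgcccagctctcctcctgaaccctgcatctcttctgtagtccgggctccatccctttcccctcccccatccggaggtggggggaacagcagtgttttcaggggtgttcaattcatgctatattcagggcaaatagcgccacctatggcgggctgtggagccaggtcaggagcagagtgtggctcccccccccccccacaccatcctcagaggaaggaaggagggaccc
Cdkn2b start: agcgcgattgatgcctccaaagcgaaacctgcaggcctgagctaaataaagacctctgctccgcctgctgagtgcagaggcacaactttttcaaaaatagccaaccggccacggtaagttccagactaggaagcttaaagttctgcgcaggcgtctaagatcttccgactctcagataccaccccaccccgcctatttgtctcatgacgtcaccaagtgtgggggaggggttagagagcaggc
The E2F motif, searched on both strands as TTTCCCGC, TTTCGCGC, TTTGCCGC or TTTGGCGC, lies 99 to 92 bases before the p19Arf start and was in 1.86% of all windows. Neither the p16Ink4a nor the Cdkn2b window held any of the motifs searched, which also included the E-box CACGTG (6.02% of all windows).

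Cdkn2c, encoding p18 (ENSMUSG00000028551, chromosome 4, 109660876 to 109667189, minus strand), moved the other way. Hepatoblasts had 11.3, 6.90, 6.90 and 7.49 CPM, Diff. hepatocytes 2.59, 2.15, 1.91 and 2.17 CPM, and mature hepatocytes 5.69, 8.54, 8.99 and 8.32 CPM. Diff. hepatocytes lay below all other libraries, and hepatoblasts and mature hepatocytes overlapped. Cdkn2c fell 3.69-fold in Diff. hepatocytes against hepatoblasts (log2 fold change -1.88 ± 0.21, edgeR adjusted p = 4.86e-06) and was 3.57-fold lower there than in mature hepatocytes (-1.84 ± 0.21, edgeR adjusted p = 5.1e-06). Mature hepatocytes against hepatoblasts gave -0.05 ± 0.20 (edgeR adjusted p = 0.843), a value whose sign turned without hepatoblast replicate 1 (0.15) and without mature hepatocyte replicate 1 (0.07).

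**Figure D4:**
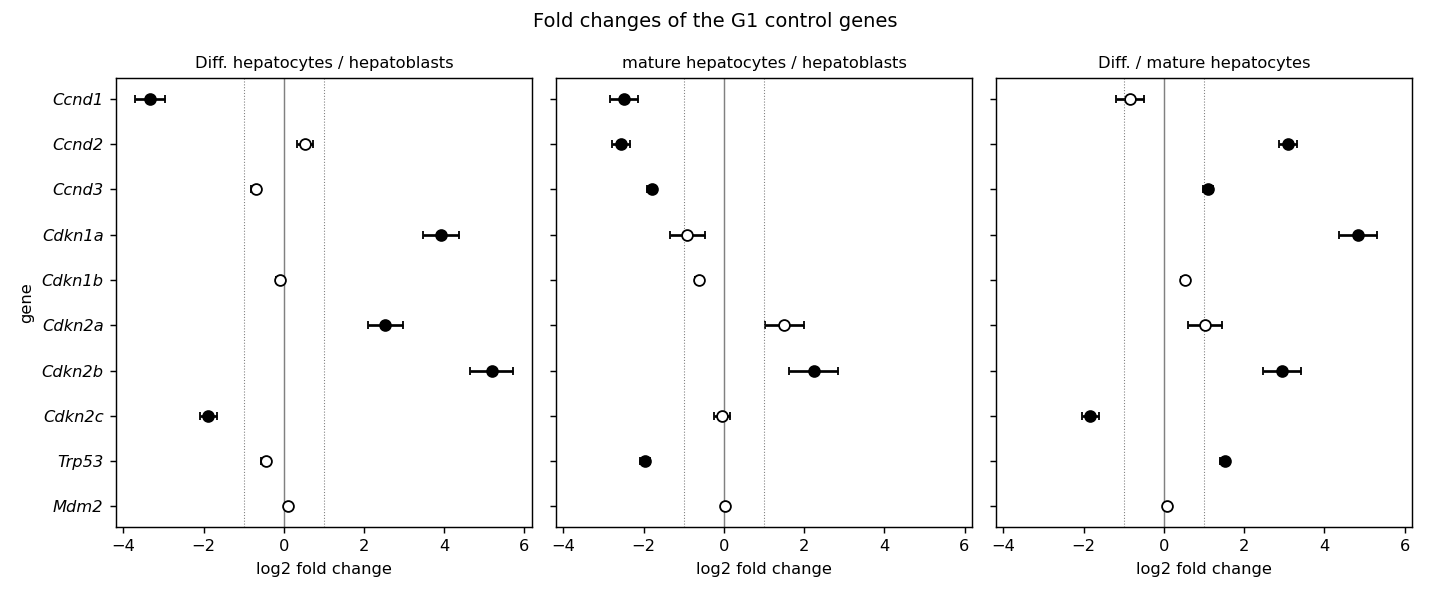
Log2 fold change (x axis) of the 10 genes in the 3 comparisons, with the standard error as bars, filled points for called genes and dotted lines at a log2 fold change of 1 either way. Cdkn1a, Cdkn2a and Cdkn2b lie to the right and Ccnd1 and Cdkn2c to the left in Diff. hepatocytes against hepatoblasts, and Mdm2 lies at 0.11, 0.02 and 0.08.

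Trp53 fell in mature hepatocytes, while Mdm2 passed the call in none of the comparisons. p53, encoded by Trp53 (ENSMUSG00000059552, chromosome 11, 69580359 to 69591873, plus strand), is a transcription factor activated largely at the protein level. Its RNA had 93.1, 77.2, 73.6 and 65.6 CPM in the hepatoblast libraries. Diff. hepatocytes had 54.6, 60.1, 54.5 and 57.0 CPM and mature hepatocytes 23.1, 20.4, 18.1 and 17.6 CPM. No library overlapped another group. Trp53 was 3.91-fold lower in mature hepatocytes than in hepatoblasts (log2 fold change -1.97 ± 0.12, edgeR adjusted p = 5.39e-09) and 2.86-fold higher in Diff. than in mature hepatocytes (1.51 ± 0.12, edgeR adjusted p = 1.14e-07). In Diff. hepatocytes against hepatoblasts the log2 fold change was -0.45 ± 0.11, under the fold threshold (edgeR adjusted p = 0.00335).

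Mdm2 (ENSMUSG00000020184, chromosome 10, 117688875 to 117710758, minus strand) had 40.1, 47.5, 41.8 and 44.2 CPM in the hepatoblast libraries. Diff. hepatocytes had 50.3, 44.8, 44.6 and 47.1 CPM and mature hepatocytes 43.3, 45.4, 44.3 and 43.4 CPM. The 3 groups overlapped. The log2 fold changes were 0.11 ± 0.07, 0.02 ± 0.07 and 0.08 ± 0.07, none of them called (edgeR adjusted p = 0.237, 0.794 and 0.348), and with library totals the first and the second turned to -0.22 and -0.83, while relative to the median of all genes they were 0.12 and 0.17 under both scalings. The ratio of Mdm2 to Trp53 CPM was 0.572 ± 0.104, 0.8286 ± 0.0723 and 2.26 ± 0.276 in hepatoblasts, Diff. and mature hepatocytes, with no overlap between groups.

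Of 28 further p53 target genes, all tested, 14 rose and 2 fell in Diff. hepatocytes against hepatoblasts, with a median log2 fold change of 1.04. In mature hepatocytes against hepatoblasts 9 rose and 6 fell (median 0.10), and in Diff. against mature hepatocytes 11 were higher and 2 lower (median 0.86). The shares of all tested genes were 14.9% higher and 14.0% lower, then 20.1% and 24.7%, then 20.2% and 15.6%. The 6 of 28 that fell in mature hepatocytes were thus near or below the share of all genes. Trp53inp1, which promotes p53 activity and autophagy, had 265, 208, 252 and 273 CPM in Diff. hepatocytes against 13.0 to 18.5 CPM in hepatoblasts (log2 fold change 3.99 ± 0.21). It also rose in mature hepatocytes (3.46 ± 0.21), as did Tigar, a regulator of glycolysis (2.51), and Ei24 (2.04). The rise of Eda2r (3.74), a TNF receptor family member, and of Sfn (3.08, or 2.47 without Diff. hepatocyte replicate 1 and 3.67 without hepatoblast replicate 1), the 14-3-3 sigma gene, passed the test against hepatoblasts only in Diff. hepatocytes, in which both were also higher than in mature hepatocytes (2.44 and 1.96). Phlda3, an Akt repressor, was higher in Diff. than in mature hepatocytes by 4.68 on the log2 scale. Pidd1, a death-domain adaptor, and Btg2, an antiproliferative gene, fell in Diff. hepatocytes (-2.52 and -1.41). In mature hepatocytes Pmaip1 (-3.63, or -2.98 without hepatoblast replicate 1), Apaf1 (-3.11) and the death receptor gene Tnfrsf10b (-2.84) fell, of which Tnfrsf10b rose in Diff. hepatocytes (1.16). Other genes linked to cell death in the list, chosen here after their values were seen, moved otherwise in mature hepatocytes, since Fas (1.55) and Perp (1.97) rose and Bax (-0.25) and Bbc3 (-0.20) were not called. The kinase gene Plk3 was lower in Diff. than in mature hepatocytes (-2.60). Other pathways also induce many of these genes.

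**Figure D5:**
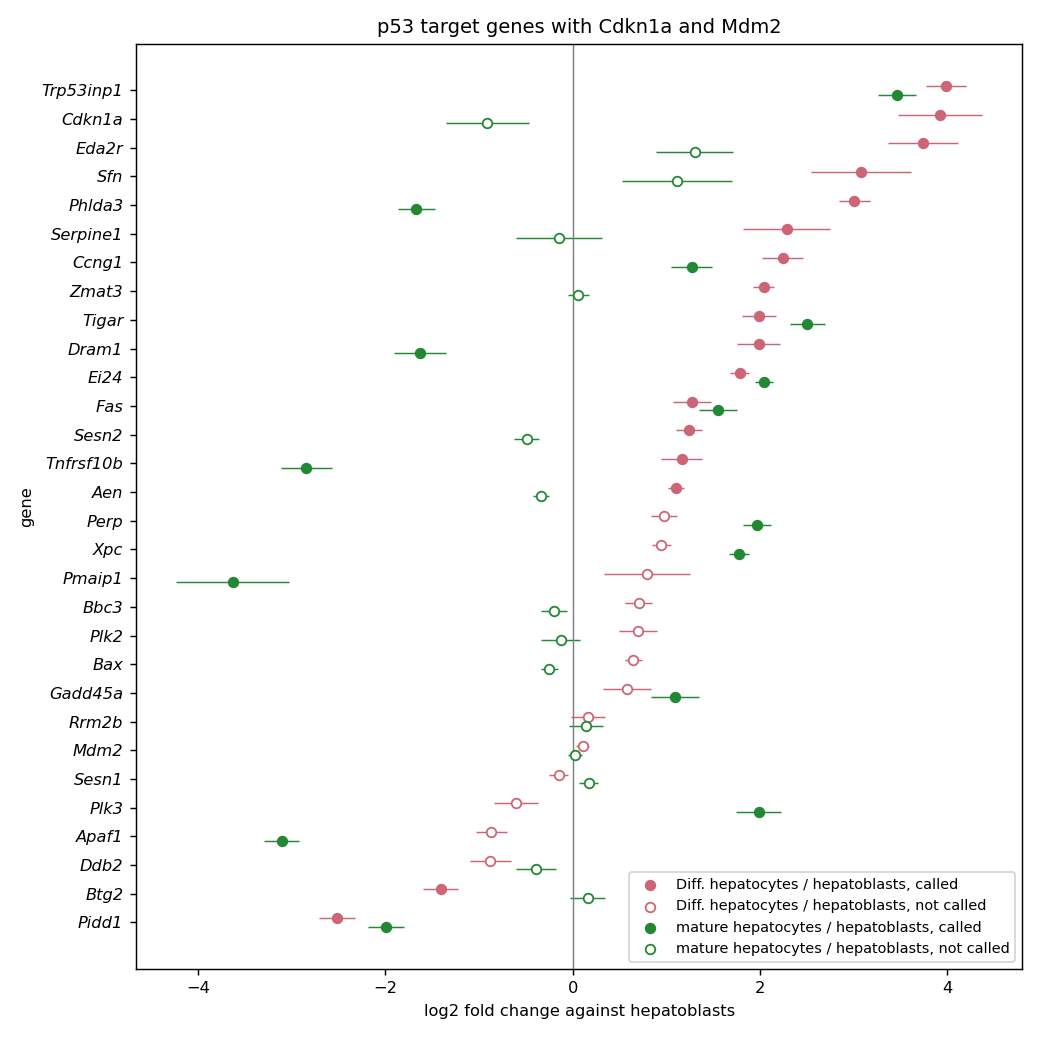
Log2 fold change against hepatoblasts (x axis, standard error as bars) of 28 p53 target genes with Cdkn1a and Mdm2, sorted by Diff. hepatocytes, filled where called. Of the 28, 14 are filled on the right and 2 on the left for Diff. hepatocytes, against 9 and 6 for mature hepatocytes. Of all tested genes 14.9% were higher and 14.0% lower for Diff. hepatocytes, against 20.1% and 24.7% for mature hepatocytes.

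Of 14 tested regulators of p53, 2 fell in Diff. hepatocytes and 3 in mature hepatocytes against hepatoblasts, near or below the 14.0% and 24.7% of all tested genes called lower. The checkpoint kinase genes Chek1 (log2 fold change -2.93 and -4.61) and Chek2 (-2.65 and -2.63) fell in both, and Trp53bp1, a DNA damage adaptor, fell in mature hepatocytes (-1.28). In Diff. against mature hepatocytes Atr (1.74), a damage-sensing kinase gene, and Chek1 (1.68) were higher. Trp63 and Trp73, the p53 relatives, had 0 to 4 counts per library and were not tested.

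Among the partners and targets of D-type cyclins, part of each list fell. Of 10 G1 kinases and E and A cyclins, 5 fell in Diff. hepatocytes and 7 in mature hepatocytes against hepatoblasts. Of all tested genes 14.0% fell and 14.9% rose in the first comparison, and 24.7% fell and 20.1% rose in the second. Ccna2, cyclin A2 (log2 fold change -4.29 and -6.65), and Ccne2, cyclin E2 (-2.22 and -3.37), fell in both, as did Cdk2 (-2.11 and -1.86) and Ccne1, cyclin E1 (-2.07 and -4.52, the latter -5.15 without mature hepatocyte replicate 2). In Diff. against mature hepatocytes 5 were higher, beside 20.2% of all tested genes. They were led by Ccne1 (2.44, or 3.07 without mature hepatocyte replicate 2), the phosphatase gene Cdc25a (2.41) and Ccna2 (2.37). Of 17 pocket protein, E2F and DREAM genes, 1 rose and 10 fell in Diff. hepatocytes, and 1 rose and 11 fell in mature hepatocytes. The one that rose was Rbl2 (1.35 and 2.43), encoding p130, the pocket protein of quiescent cells. E2f2 (-5.04 and -4.32) and Rbl1 (-2.83 and -3.81), encoding p107, fell in both, as did E2f8 (-3.92 and -1.79) and E2f7 (-1.74 and -3.59). Between Diff. and mature hepatocytes E2f7 was higher (1.86), and E2f8 (-2.14) and Rbl2 (-1.08) were lower, of which Rbl2 missed the fold threshold without mature hepatocyte replicate 4 (-0.99) and with library totals (-0.54).

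All 14 S-phase genes that E2F drives fell in Diff. hepatocytes against hepatoblasts, and 13 of 14 in mature hepatocytes, with medians of -3.05 and -4.08 on the log2 scale. Of all tested genes 14.0% and 24.7% were called lower in these comparisons. The replication licensing genes Cdc6 (-4.44 and -6.20) and Mcm5 (-4.17 and -4.66) fell in both. Their sum was 1646 ± 429 CPM, 218 ± 28.7 CPM and 178 ± 19.5 CPM in hepatoblasts, Diff. and mature hepatocytes, and the sums of the hepatocyte groups came close, at 203 to 261 CPM against 154 to 201 CPM. In Diff. against mature hepatocytes 5 were higher, among them Cdc6 (1.75), Rrm2 (1.48) and Mcm2 (1.46), beside 20.2% of all tested genes. All 10 proliferation markers fell in both comparisons with hepatoblasts, with Mki67 at -4.67 and -7.01, and 9 of 10 were higher in Diff. than in mature hepatocytes, led by Bub1 (3.75), Plk1 (2.70) and Aurkb (2.51). Erythroid markers fell too, 9 of 9 in Diff. hepatocytes and 8 of 9 in mature hepatocytes, from a sum of 1060 CPM in hepatoblasts, or 466 CPM without replicate 1, to 13.7 and 157 CPM, of which Alas2 gave 151 CPM in mature hepatocytes. Without hepatoblast replicate 1 and Diff. hepatocyte replicate 1 the 3 cyclins, 5 inhibitors, Trp53 and Mdm2 kept their direction and their side of the call in Diff. hepatocytes against hepatoblasts, an alternative chosen after the data had been seen. The part of erythroid cells in the fall of cell cycle genes was not tested.

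Among 12 genes that turn over D-type cyclins and p27, 2 rose and 2 fell in Diff. hepatocytes, and 3 rose and 2 fell in mature hepatocytes, shares near or below those of all tested genes (14.9% higher and 14.0% lower, then 20.1% and 24.7%). Skp2 (log2 fold change -4.00 and -5.25) and its cofactor Cks1b (-2.24 and -2.74), which degrade p27, fell in both, and the cyclin D1 ligase genes Fbxo31 (1.99 and 1.66) and Fbxo4 (1.66 and 1.92) rose in both. Rnf123, a p27 ligase subunit, rose in mature hepatocytes (1.26), though with library totals neither it (0.38) nor Fbxo31 (0.81) was called there, and Skp2 was higher in Diff. than in mature hepatocytes (1.25). Of 14 upstream transcription factors, 2 rose and 3 fell in Diff. hepatocytes, and 5 rose and 4 fell in mature hepatocytes. Foxo1 (1.96) and Foxo4 (1.87), which can induce p27, rose in Diff. hepatocytes, where Foxm1 (-3.21), a driver of mitotic genes, Mycn (-1.92) and Klf6 (-1.51) fell. In mature hepatocytes Cebpa (2.41), a hepatocyte factor with antiproliferative activity, Foxo4 (1.43) and Myc (1.42) rose, as did Foxo1 (1.31). With library totals Foxo4 and Myc were not called there (0.56 and 0.57). Foxm1 (-5.38), Klf6 (-4.33) and Mycn (-3.87) fell in mature hepatocytes.

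Regulators of the Ink4/Arf locus were mixed, with 1 of 15 risen and 5 fallen in Diff. hepatocytes and 2 risen and 4 fallen in mature hepatocytes. Of all tested genes 14.9% rose and 14.0% fell in Diff. hepatocytes, and 20.1% rose and 24.7% fell in mature hepatocytes. The counts in mature hepatocytes were thus near these shares. Ezh2, the Polycomb methyltransferase that silences the locus in dividing cells, fell in both (log2 fold change -2.30 and -2.84), and Cbx7, a Polycomb reader, rose in both (3.18 and 2.85). The repressors Tbx3 (-2.76) and Tbx2 (-1.52) fell in Diff. hepatocytes and were lower there than in mature hepatocytes (-3.03 and -1.57), a call that Tbx2 lost with library totals (-1.04). Of the neighbours on chromosome 4, Mtap fell in both comparisons (-1.19 and -1.40), unlike Cdkn2a and Cdkn2b. Dmrta1 had 0, 0, 1 and 0 counts in hepatoblasts, 0, 0, 0 and 2 in Diff. hepatocytes and 8, 7, 9 and 16 in mature hepatocytes, where it was called higher than in both.

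Markers of some other cells moved with the culture as well. Mesenchymal markers summed to 671 ± 204, 1498 ± 614 and 53.4 ± 9.62 CPM in hepatoblasts, Diff. and mature hepatocytes, with 3 of 8 risen in Diff. hepatocytes against hepatoblasts. Bile duct markers summed to 13.5 ± 1.02, 114 ± 66.8 and 30.2 ± 11.2 CPM, with 3 of 5 risen. Of all tested genes 14.9% rose in that comparison. Endothelial markers, led by Stab2 in hepatoblasts and mature hepatocytes, summed to 63.5 ± 43.4, 7.91 ± 2.21 and 178 ± 46.6 CPM. Macrophage markers summed to 175 ± 143, 87.5 ± 71.9 and 212 ± 72.0 CPM, led by Cd5l, Lyz2 and Clec4f. In Diff. hepatocytes against hepatoblasts Cd5l, Marco, Timd4 and Clec4f fell and Vsig4 rose. The other macrophage markers and all megakaryocyte markers were not called there. Megakaryocyte markers, led by Itga2b, summed to 30.1 ± 17.8, 42.9 ± 20.2 and 4.10 ± 0.760 CPM, and lymphoid and granulocyte markers to 117 ± 169, 45.4 ± 43.2 and 5.42 ± 2.35 CPM. Without replicate 1 of hepatoblasts and of Diff. hepatocytes the macrophage sums were 104 and 54.1 CPM, and the lymphoid and granulocyte sums 32.3 and 26.5 CPM. The part of these cells in the levels of the 10 genes was not tested.

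Ranked per kilobase of the union of exons, the 10 genes stood in a different order in each group. In hepatoblasts Ccnd1 led with 47.6 ± 10.6 CPM per kb, ahead of Trp53 (19.1), Ccnd3 (13.0), Cdkn1b (10.3), Mdm2 (8.54) and Ccnd2 (5.31), neighbours whose libraries did not overlap. Cdkn1a (3.45) and Cdkn2c (3.03) overlapped, as did Cdkn2a (0.136) and Cdkn2b (0.0702). In Diff. hepatocytes Cdkn1a led with 52.4 ± 2.52 CPM per kb, ahead of Trp53 (14.0), and Cdkn1b (9.67) and Mdm2 (9.19) overlapped. Ccnd3 (7.99) overlapped Ccnd2 (7.63), which overlapped Ccnd1 (4.72), which overlapped Cdkn2b (2.66). Cdkn2b lay above Cdkn2c (0.822) in every library, and Cdkn2c overlapped Cdkn2a (0.807). In mature hepatocytes Mdm2 (8.68 ± 0.194), Ccnd1 (8.47 ± 2.42), Cdkn1b (6.71) and Trp53 (4.89) each overlapped the next. Ccnd3 (3.72), below Trp53 in every library, was followed by Cdkn2c (2.94), Cdkn1a (1.85), Ccnd2 (0.890), Cdkn2a (0.398) and Cdkn2b (0.340), each overlapping the next. The order depends on the length used. With the longest coding transcript, a ranking added after seeing the data, Cdkn1a still led in Diff. hepatocytes. In hepatoblasts Ccnd1 (59.9 CPM per kb) and Ccnd3 (53.9) overlapped, with Ccnd3 the higher in replicate 1, and in mature hepatocytes Ccnd3 (15.5) had the highest mean but overlapped Mdm2 (14.03).

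The genes with the nearest pattern were found among 12311 protein-coding genes by the root mean square distance of centred log2 CPM over the 12 libraries. Ccnd1 was nearest to Selenoh (0.31) and Fras1 (0.33), at distances well below its own spread of 1.55 around its mean. Ccnd2 was nearest to Nes (0.28) and Pde3a (0.28), and Ccnd3 to Rnps1 (0.14) and Ruvbl2 (0.15). Cdkn1a, with a spread of 2.36, was nearest to Fam129a (0.62). Cdkn2b (spread 1.93) was nearest to App (0.48) and Selenbp1 (0.59), Cdkn2a to Fam241b (0.37) and Atp11a (0.37), and Cdkn2c to Ssbp3 (0.23) and Selenow (0.26). Trp53 was nearest to Nop56 (0.17), a nucleolar protein gene, and Sf3b3 (0.18), a splicing factor gene. Cdkn1b was nearest to Mob1a (0.08) and Fam104a (0.09). For Mdm2 the nearest genes, Mfsd11 (0.08) and Pcgf3 (0.08), were as far from it as its own spread of 0.08.

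Over the 3 pairs of groups, 3 of the 10 genes lay with all Diff. hepatocyte libraries above all hepatoblast libraries and 4 below, beside 57.5% of all tested genes that did not overlap. For mature hepatocytes against hepatoblasts 1 gene lay above and 5 below, beside 66.0% of all genes, and for Diff. against mature hepatocytes 6 lay above and 1 below, beside 61.6%. Such a separation by itself fixes p = 0.0286 in a two-sided exact permutation test over 70 assignments of 8 libraries, the smallest p this design allows. That p therefore adds nothing to the separation.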

How the data were processed

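The data are 12 RNA-seq libraries from poly(A) RNA read as 75-bp single reads. The authors mapped reads to GRCm38 and counted them on Ensembl genes with STAR 2.5.2b, per the labels and the paper, and the deposited file holds unnormalized gene counts. The paper calls the libraries strand-specific, the labels name a NEBNext Ultra kit, and the strand setting of the counting is not given in the sources used here, so reads of overlapping antisense genes may be mixed. The submitters' processing notes also list FastQC 0.11.2, Picard 2.10.2 and DESeq2 1.22.2. Positions and exon lengths came from GENCODE M21 (53620 of 53715 identifiers matched), and promoters from RefSeq on GRCm38.p6 for 8 of the 10 genes. Those of Ccnd1 and Ccnd2 were not analysed here.

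Genes reaching more than 10 counts in at least 1 library were tested with edgeR 4.0.16 (TMM, quasi-likelihood test, 12 libraries, group as only term, R 4.3.3), with Benjamini-Hochberg adjustment over 17779 genes. Per-kilobase values divide CPM by the union of exons. Log2 CPM used a prior count of 2. A library at 0 counts allows up to 3. On simulated counts of 12650 genes for Diff. hepatocytes against hepatoblasts, 63 of 100 genes changed 2-fold and 93 of 100 changed 4-fold passed the adjusted p. Alternatives were DESeq2 1.42.0, its size factors, library totals, glmTreat, other filters, fits restricted to 8 libraries, a block for replicate number, and leaving out libraries. Named genes were the 10 listed, up to 3 called genes with the largest fold change per pathway list and direction with a mean of at least 1 CPM, not all of which are printed, the most abundant markers and the 2 nearest genes in pattern. A few genes that these rules name are not reported here. The genes and lists were chosen with earlier results of these data known. Nothing in the labels ties replicates to separate litters or animals beyond the term biological replicate, and the replicates of a group differed by more than counting error (chi-square per gene 6.43 to 99.2). No batch is named. Ahsp, 1 listed erythroid marker, had no identifier in the table.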

Additional observations from a re-analysis of the deposited data

Results flagged for a closer look

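In groups of 4 libraries, a library was picked out when its gap to the nearest other took up more of the group's range than Dixon's critical value at 5% allows. Of 108 groups checked, 21 had such a library. Chance picks out 5.4 of 108 independent groups, a number that does not apply as it stands, since the shares and sums use the same genes and libraries and a group at 0 in 3 libraries is picked out by construction.

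Hepatoblast replicate 1 accounted for most. Ccnd3 was 139 CPM against 104 to 108 in the other 3 libraries, and Cdkn2c 11.3 CPM against 6.90 to 7.49. Ccnd1 held 59.4% of the D-type cyclins against 74.8% to 76.4%, and Ccnd3 29.3% against 16.6% to 18.3%. The Cip/Kip sum was 101 CPM per kb against 140 to 144. Cdkn1a held 4.06% of it against 2.21% to 2.40%, Cdkn1b 10.6% against 6.87% to 7.37%, and Cdkn1c 85.4% against 90.2% to 90.9%. Cdkn1c itself was 175 CPM against 259 to 265. Erythroid markers were at 2840 CPM against 348 to 577, macrophage markers at 389 CPM against 91.95 to 112, and lymphoid and granulocyte markers at 370 CPM against 27.04 to 42.4.

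In Diff. hepatocyte replicate 1, Cdkn2a was 1.64 CPM against 0.646 to 0.755, Cdkn2d 3.63 CPM against 2.19 to 2.35, bile duct markers 213 CPM against 69.95 to 93.5, proliferation markers 131 CPM against 57.8 to 63.1, and S-phase genes 261 CPM against 203 to 204.

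In hepatoblast replicate 3, Cdkn2a was 0.0648 CPM against 0.179 to 0.199, which is 2 counts against 6 in each other library. Bile duct markers there summed to 15.1 CPM against 12.9 to 13.2. Dmrta1 was listed with 0.0324 CPM in hepatoblast replicate 3 and 0.0986 CPM in Diff. hepatocyte replicate 4 against 0 in the other libraries of each group, a matter of 1 and 2 counts.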

How the results depend on the processing

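Of the fold changes of the 10 genes, Mdm2 and Cdkn2c changed sign under some setting and the other 8 kept their sign under all. Mdm2 in Diff. hepatocytes against hepatoblasts was -0.22 with library totals. In mature hepatocytes against hepatoblasts it was -0.83 with library totals, -0.0218 with a filter of at least 1 count, -0.0170 without both hepatoblast replicate 1 and Diff. hepatocyte replicate 1 (chosen after seeing the data), and -0.0187 to 0.0589 with 1 replicate left out, while Cdkn2c was 0.15 without those 2 libraries and -0.13 to 0.15 with 1 replicate left out. Their estimates in mature hepatocytes against hepatoblasts, 0.02 and -0.05, lie within their standard errors of 0.07 and 0.20.

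The count of listed genes called higher in mature hepatocytes against hepatoblasts, 1 as reported (Cdkn2b), was 0 with glmTreat, library totals or 8 libraries, 0 to 1 with 1 replicate left out, and 2 without both replicate 1 libraries or at an adjusted p under 0.05 without a fold threshold. Called lower in Diff. against mature hepatocytes were 1 to 2 with 1 replicate left out and 2 without both replicate 1 libraries. No label says that a replicate number marks a shared isolation. Deviations of same-numbered Diff. hepatocyte and hepatoblast libraries correlated at 0.32, -0.06, 0.25 and 0.18, each the best match for replicates 1, 3 and 4 but not for replicate 2, so pairing could not be settled and was not used. With the replicate block 2 listed genes were called higher in mature hepatocytes against hepatoblasts, Cdkn2a being added, and no other call of the 10 changed.

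glmTreat called 2966 of all genes (1529 higher, 1437 lower) in Diff. hepatocytes against hepatoblasts, and in Diff. against mature hepatocytes 4221 of all genes (2372 and 1849) and 32 pathway genes (26 and 6, against 40 and 11 as reported), fewer because the fold threshold is part of its test. Library totals called 10 pathway genes higher (21 as reported) and 2007 of all genes higher against 7920 lower in mature hepatocytes against hepatoblasts, and 62 pathway genes higher and 6 lower and 5500 of all genes higher and 1776 lower in Diff. against mature hepatocytes. At an adjusted p under 0.05 without a fold threshold, Diff. hepatocytes against hepatoblasts had 8 listed genes called (4 lower), 33 pathway genes higher (20 as reported) and 10615 of all genes (5217 and 5398), mature hepatocytes against hepatoblasts 12870 of all genes (5945 and 6925), and Diff. against mature hepatocytes 2 listed genes lower, 98 pathway genes (67 and 31) and 11580 of all genes (6083 and 5497).

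Settings were compared for the pathway genes with the largest fold change per list and direction, not for every pathway gene named. Of these, glmTreat did not call Rbl2, Klf6, Tbx2, Mtap and Btg2 in Diff. hepatocytes against hepatoblasts. It did not call Rnf123, Myc and Trp53bp1 in mature hepatocytes against hepatoblasts. In Diff. against mature hepatocytes it did not call E2f7, Rbl2, Skp2, Tbx2, Chek1, Cdc6, Rrm2 and Mcm2.

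Family shares moved with the length used, in the order hepatoblasts, Diff. and mature hepatocytes. With the longest coding transcript Ccnd1 made up 49.0%, 11.2% and 38.3%, Ccnd3 44.5%, 66.5% and 56.7%, and Ccnd2 22.3% in Diff. hepatocytes. Without division by length Ccnd1 made up 57.3%, 12.8% and 48.5%, Ccnd2 13.0%, 43.6% and 10.7%, and Ccnd3 29.8% in hepatoblasts and 40.7% in mature hepatocytes. With the longest transcript Cdkn1a made up 4.29% and 70.03% in hepatoblasts and Diff. hepatocytes, and Cdkn1b 7.56% and Cdkn1c 22.4% in Diff. hepatocytes. Without length Cdkn1a made up 4.22% and 65.4%, Cdkn1b 15.99% and 15.5%, and Cdkn1c 79.8%, 19.1% and, in mature hepatocytes, 2.35%. Depth limited Cdkn2a and Cdkn2b, with at most 13 counts per library outside Diff. hepatocytes.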
